A study of Mus musculus with 4 samples.

Results

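The nuclear genes for the subunits of respiratory complex I were taken from the deposited gene counts as the protein-coding mouse genes whose symbols start with Nduf followed by a, b, c, s or v and a number, together with Ndufab1. The Ndufaf assembly factors were left out. This rule gave 40 of the 53647 genes in the count tables, and 39 of them had enough counts to be tested. Of the 40, 37 encode subunits of complex I, and all 37 were tested. Ndufa4 carries the family name but is now placed in complex IV, Ndufa4l2 is its paralogue, and Ndufb11b is an intronless relative of Ndufb11 that had 1 count over the 4 libraries and was not tested.

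The study asked how ectodysplasin A2 (EDA-A2), a ligand of the tumour necrosis factor family that activates the EDA2R receptor, alters gene expression in muscle cells. Primary wild-type (WT) myoblasts from limb muscles of mouse pups aged 2-3 days were differentiated into multinucleate myotubes, and RNA was collected 72 h after differentiation. The treated group (n = 2 libraries) had received 250 ng/ml of recombinant EDA-A2 for 24 h, and the control group (n = 2 libraries) is labelled control with the same 24 h. These are cultures of neonatal cells without nerve or load, and the labels do not say whether the replicates came from separate cultures or pups, so the p-values measure only the spread between these libraries, which may be technical.

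Complex I is the entry point for electrons from NADH into the mitochondrial respiratory chain. It passes them through a chain of iron-sulphur clusters to ubiquinone and pumps protons across the inner membrane. The L-shaped enzyme is built from modules: the N module oxidises NADH, the Q module reduces ubiquinone, and the membrane modules ND1, ND2, ND4 and ND5 each gather around the proton-pumping proteins that the mitochondrial genome encodes. The core subunits carry out catalysis and have relatives in bacteria, while the supernumerary subunits surround them and are needed for assembly or stability. Skeletal muscle is rich in the complex, and most of its subunits are made from nuclear genes and imported.

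To show the start of these genes, the RefSeq promoters (mouse build GRCm38.p6, 250 bases before to 50 bases after each start site) were searched on both strands for motifs of factors known for respiratory genes. Promoters were listed for 34 of the 40 members, and 35 promoters belonged to 33 subunits. The letters AAGATGGC, the core of the motif of the factor YY1, stood in 7 of these 35 promoters (20.0%), against 2.75% of all 32851 promoters and 4.09% of the 13963 promoters of genes tested here. In all 7 genes the match lay on the strand of the gene, began 23 to 39 bases after the start site, and its ATG was the annotated start codon. The shares over all promoters were not restricted to promoters with a start codon in the searched window, so the comparison is unlike in this respect. The windows of 30 bases below are shown because they hold the translation start of 7 subunits from 5 modules in 1 common run of letters, which is in capitals. Each is written 5′ to 3′ on the strand of its gene, from Ndufa3 (chr7:3617384-3617413, plus strand), Ndufs7 (chr10:80249462-80249491, plus), Ndufs6 (chr13:73328433-73328462, minus), Ndufa9 (chr6:126849097-126849126, minus), Ndufb8 (chr19:44555393-44555422, minus), Ndufc1 (chr3:51408915-51408944, minus) and Ndufs4 (chr13:114388045-114388074, minus).
Ndufa3: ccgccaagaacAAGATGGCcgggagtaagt
Ndufs7: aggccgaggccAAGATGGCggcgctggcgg
Ndufs6: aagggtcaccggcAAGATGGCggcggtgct
Ndufa9: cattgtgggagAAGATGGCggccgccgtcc
Ndufb8: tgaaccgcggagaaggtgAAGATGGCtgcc
Ndufc1: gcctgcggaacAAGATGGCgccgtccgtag
Ndufs4: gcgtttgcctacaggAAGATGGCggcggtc

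The palindromic NRF1 motif, in capitals in the Ndufa11 window below, was found in 1 subunit promoter, that of Ndufa11 (2.86%, against 0.971% of all promoters and 1.83% of those of tested genes). With any base at its sixth position, a form chosen after the exact motif had been searched, it stood in 8 promoters of 7 subunits (22.9%, against 4.60% of all promoters and 9.19% of those of tested genes). These 7 were Ndufa11, Ndufa8, Ndufs5, Ndufa5, Ndufs6, Ndufa6 and Ndufb4, and the promoter of Ndufb4 held the motif 3 times. Ndufs6 held both this motif and the start codon run. The windows of Ndufa11 (chr17:56717692-56717721, plus strand) and Ndufs6 (chr13:73328479-73328508, minus strand) are given to show the exact motif beside a variant, again with the match in capitals. The match in Ndufs6 lies on the strand opposite to the gene, so its capitals are the reverse complement of the motif.
Ndufa11: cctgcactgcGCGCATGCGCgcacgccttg
Ndufs6: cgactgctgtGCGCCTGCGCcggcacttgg
The letters CCGGAAG, bound by ETS factors such as GABP, stood in 4 subunit promoters (11.4%, against 8.86% of all and 16.1% of tested genes), and the ERR half-site AAGGTCA in 3 (8.57%, against 4.72% and 3.17%). No matches of different motifs overlapped in these promoters, apart from the exact NRF1 motif, which the wider form contains. Matches are letters in a window, and binding was not measured.

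The 4 libraries had between 29444155 and 29746863 counts on genes. The 10 myotube markers (Myog, Ckm, Myh3, Myh8, Acta1, Des, Tnnt3, Actn2, Mylpf and Mb) were all expressed, at 833727 and 792632 normalised counts in sum in the controls and 589744 and 595994 after EDA-A2. Of the 10, 6 were called lower (against 2.13% of all genes), and the median of the list was -0.43 on the log2 scale. Sums of 7 fibroblast markers were 49640.3 and 51614 in the controls and 47348 and 48044 after EDA-A2, those of 7 macrophage markers 291, 256, 401 and 299, and those of 6 endothelial markers 144, 161, 183 and 168, each in the order control 1, control 2, EDA-A2 1, EDA-A2 2. None of these 3 lists had a called gene, but only 5, 3 and 2 of their genes had enough counts to be tested. The tested macrophage and endothelial genes all had log2 fold changes above 0, and of the fibroblast genes 3 were below and 2 above. Of 6 myoblast markers, Cdh15 was called lower and Vcam1 higher, and none of 6 markers of dividing cells was called.

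After EDA-A2, the level of transcripts from the complex I subunit genes was slightly lower across all modules. All 39 tested members had a log2 fold change (EDA-A2 against control) below 0, against 50.5% of all 15173 genes tested, and the 37 subunits ranged from -0.30 (Ndufa3) to -0.03 (Ndufc2). Their median was -0.15, where the median over all genes was -0.00 with quartiles of -0.11 and 0.11. Only Ndufa13 and Ndufb10 passed the test, both lower (edgeR's quasi-likelihood test, Benjamini-Hochberg adjusted p under 0.05 over all genes), so that 2 of 39 members were called where 2.13% of all genes were called lower and 2.45% higher. At an unadjusted p under 0.05, 20 of the 39 members were lower, against 8.03% of all genes. Normalised counts of both EDA-A2 libraries lay below those of both controls in 33 of the 39 members and 32 of the 37 subunits, against 22.2% of all genes. With any 1 library left out, the median of the 37 subunits stayed between -0.22 and -0.12. Such a fit leaves 1 library in a group, so it cannot decide whether a member would still be called. The members are read in the same 4 libraries, so the counts of members given here are not independent of each other. In bulk RNA, fewer myotubes and less of a transcript in each myotube cannot be told apart, and the part that the lower myotube marker level had in the subunit values was not tested.

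**Figure D1:**
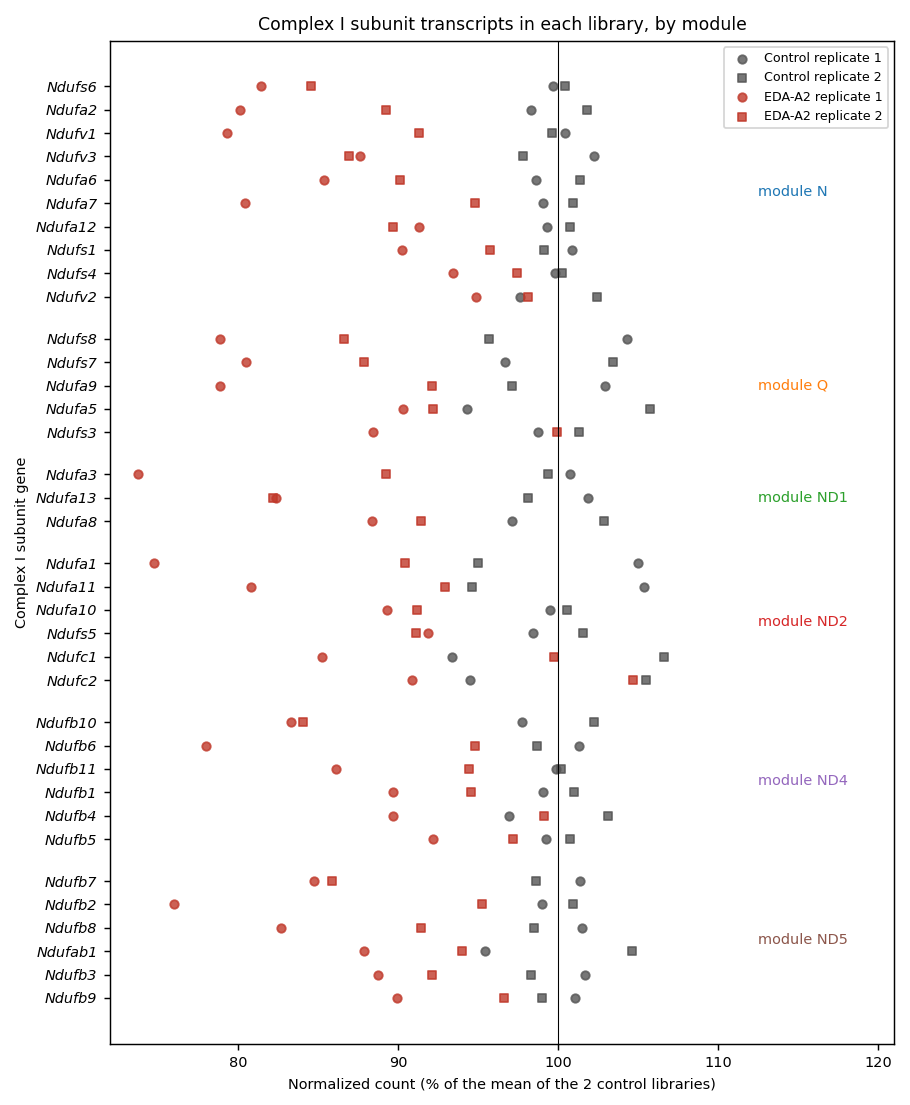
Normalised counts of 36 of the 37 complex I subunit genes in each of the 4 libraries, as a percentage of the mean of the 2 control libraries (x axis), with 1 row per gene grouped by module and ordered by fold change; grey symbols are controls and red symbols EDA-A2. EDA-A2 replicate 1 (red circles) lay below both controls in all 36 genes drawn and EDA-A2 replicate 2 (red squares) in 31. Over all genes tested, both treated libraries lay below both controls in 22.2%.

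The 2 treated libraries differed in how far they stood from the controls. Averaged over the 37 subunits, the log2 level relative to the control mean was -0.01 and 0.01 in the controls, -0.23 in EDA-A2 replicate 1 and -0.11 in EDA-A2 replicate 2. The controls were thus 0.01 apart and the treated libraries 0.12 apart, beside a difference of -0.17 between the group means. EDA-A2 replicate 1 was the lowest of the 4 libraries in 33 subunits and EDA-A2 replicate 2 in the other 4. As a share of all gene counts, the 37 genes took 0.353% and 0.362% in the controls and 0.322% and 0.342% after EDA-A2. Replicate 1 of EDA-A2 also had the largest share of read pairs outside annotated genes, 7.40% against 6.68%, 6.68% and 6.84% in the others, and its part in these values was not tested. The median of the subunits was -0.12 when that library was left out, and -0.22 when the second treated library was.

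The N module takes up NADH. All 10 of its subunits had log2 fold changes below 0 (median -0.19), and none was called. In 9 of the 10, each treated library was under each control, against 22.2% of all genes. The core subunit Ndufv1 binds NADH and the flavin that accepts its electrons. It had 4097 and 4062 normalised counts in the controls and 3234 and 3725 after EDA-A2, a log2 fold change of -0.23 ± 0.08 (SE) with an adjusted p of 0.115. Both treated values were lower, and they were further apart than the controls. Ndufv2, the neighbouring iron-sulphur subunit of the same catalytic unit, had 3383 and 3551 counts in the controls and 3289 and 3401 after EDA-A2 (-0.05 ± 0.07, adjusted p = 0.808), and its groups overlapped. For Ndufs1, the large subunit that carries several iron-sulphur clusters onward, the counts were 5852 and 5749 in the controls and 5234 and 5555 after EDA-A2 (-0.10 ± 0.07, adjusted p = 0.521), with no overlap. The groups also stood apart for Ndufs6, a small zinc-binding supernumerary subunit at the join of the N and Q modules and the lowest of the module. Its counts were 1745 and 1758 in the controls against 1426 and 1480.1 after EDA-A2, a log2 fold change of -0.27 ± 0.07 with an unadjusted p of 0.00229 and an adjusted p that rounds to 0.05 and lay just above the threshold. Ndufa2, a subunit with a thioredoxin-like fold, had 1757 and 1820.2 counts in the controls and 1432 and 1596 after EDA-A2 (-0.24 ± 0.08, adjusted p = 0.11), again with both treated libraries below. Ndufa6, which docks an acyl carrier protein onto the enzyme, had 4231 and 4350.2 counts in the controls and 3663 and 3867 after EDA-A2 (-0.19 ± 0.07, adjusted p = 0.153), without overlap. The other 4, Ndufv3, Ndufa7, Ndufa12 and the late assembling Ndufs4, lay between -0.20 and -0.07.

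The Q module holds the site where ubiquinone is reduced. Its 6 subunits had a median of -0.18, none was called, and in 5 the groups did not overlap (against 22.2% of all genes). The lowest was the core subunit Ndufs8, which carries iron-sulphur clusters between the N module and the quinone site, with 2159.5 and 1981 normalised counts in the controls and 1633 and 1794 after EDA-A2 (log2 fold change -0.27 ± 0.08, adjusted p = 0.0651). Close to it was Ndufs7, which holds the last cluster before ubiquinone, with 2024 and 2165 in the controls and 1686 and 1839.7 after EDA-A2 (-0.25 ± 0.08, adjusted p = 0.0857). In both genes each treated value was under each control value. Ndufs3, a core subunit without a cluster, had 2569.6 and 2637 counts in the controls and 2302 and 2600.4 after EDA-A2 (-0.09 ± 0.08, adjusted p = 0.676), where the second treated library lay between the controls. The supernumerary subunits Ndufa9, which binds a nicotinamide nucleotide at the edge of the module, and Ndufa5 had log2 fold changes of -0.23 and -0.13.

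The ND1 module joins the Q module to the membrane arm, and its 3 nuclear subunits had the lowest median of the 6 modules, -0.28. The difference between modules was not tested, and with 3 genes it rests on Ndufa3 and Ndufa13. When transcript length and GC content were fitted in each library, the ND1 median was -0.21 and that of ND5 -0.20. Ndufa13, also known as a cell death regulator that binds STAT3, is needed for assembly of the enzyme. Its transcript (ENSMUSG00000036199, GRCm39 chr8:70346808-70355872, minus strand) had 4903 and 4724 normalised counts in the controls (mean 4814 ± 127, SD, n = 2) and 3964 and 3955 after EDA-A2 (3959 ± 6.51, SD, n = 2). It fell by 17.8% after EDA-A2, a log2 fold change of -0.28 ± 0.07 (SE) with an adjusted p of 0.0224 by edgeR, the smallest of all members, and the treated libraries were nearly equal. The call was lost with total counts (adjusted p = 0.0654) and without the filter on low counts (0.149). With any 1 library left out, its log2 fold change was between -0.31 and -0.25, in fits that cannot decide the call. Ndufa3, a short membrane subunit, had the largest log2 fold change of the members, -0.30 ± 0.09, but its treated libraries were far apart, at 991 and 1199 counts against 1354 and 1335 in the controls, and its adjusted p was 0.0903. For Ndufa8, which sits on the side of the intermembrane space, the counts were 2001 and 2119.6 in the controls and 1820.2 and 1884 after EDA-A2 (-0.15 ± 0.07, adjusted p = 0.323), with no overlap.

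In the ND2 module, at the root of the proton-pumping arm, the 6 subunits had a median of -0.14 and none was called. The groups did not overlap in 4 (against 22.2% of all genes). Ndufa1, a small membrane subunit encoded on the X chromosome and needed early in assembly, had the lowest value, with 1325 and 1199 normalised counts in the controls and 943 and 1141 after EDA-A2 (log2 fold change -0.28 ± 0.10, adjusted p = 0.143). Most of that difference came from the first treated library. Ndufc2 had the highest value of all subunits, -0.03 ± 0.08 (adjusted p = 0.916), with 1841 and 2056 counts in the controls and 1771 and 2040.2 after EDA-A2, so that its libraries differed more by number than by group. The other 4 were Ndufa11, Ndufa10, Ndufs5 and Ndufc1, from -0.20 to -0.11.

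The distal membrane arm is formed by the ND4 and ND5 modules. In ND4 the median of 6 subunits was -0.13, and 5 had no overlap between groups (against 22.2% of all genes). The called gene here was Ndufb10, a disulphide-bonded subunit on the side of the intermembrane space (ENSMUSG00000040048, GRCm39 chr17:24941032-24943453, minus strand). It had 2678 and 2801 normalised counts in the controls (mean 2739.5 ± 87.4, SD, n = 2) and 2282 and 2302 after EDA-A2 (2292 ± 14.0, SD, n = 2), so it fell by 16.3%, a log2 fold change of -0.26 ± 0.07 with an adjusted p of 0.0461. The call was lost, among other settings, with upper quartile factors (adjusted p = 0.0527). With any 1 library left out, its log2 fold change was between -0.29 and -0.22, in fits that cannot decide the call. As with Ndufa13, the treated libraries lay close together and well under the controls. Ndufb5 was at the other end of the module (-0.08 ± 0.07, adjusted p = 0.664), with 3719 and 3774 counts in the controls and 3453 and 3640.2 after EDA-A2.

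In ND5, the far end of the arm, the median of 6 subunits was -0.17 and none was called. None overlapped between groups, where 22.2% of all genes had both treated libraries below both controls. Ndufb7, another subunit facing the intermembrane space, was the lowest, with 2417 and 2351 counts in the controls and 2020.2 and 2047 after EDA-A2 (-0.23 ± 0.07, adjusted p = 0.0818). Ndufb9 was the highest (-0.10 ± 0.07, adjusted p = 0.551), with 4445 and 4352 counts in the controls and 3955 and 4248 after EDA-A2. Relative to its level, Ndufb2 showed the widest gap between the treated libraries in the module, 730.2 and 915, against 951 and 970.1 in the controls (-0.22 ± 0.10, adjusted p = 0.303). Ndufab1, the mitochondrial acyl carrier protein, which occurs in complex I and also serves lipoic acid and fatty acid synthesis, had a value of -0.14 with an adjusted p of 0.416.

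**Figure D2:**
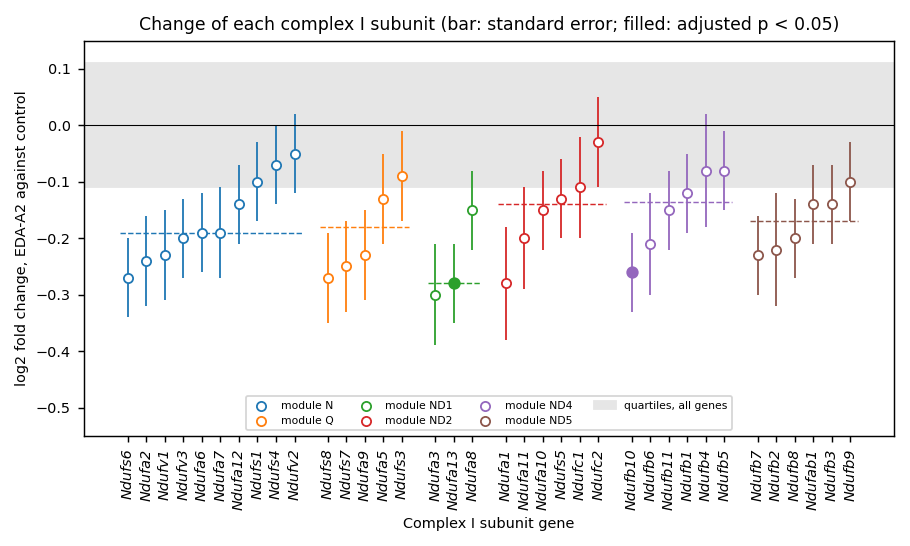
Log2 fold change of 36 of the 37 complex I subunit genes (y axis, EDA-A2 against control, bars are standard errors), grouped by module along the x axis, with dashed lines at the medians of whole modules and a grey band between the quartiles of all genes, -0.11 and 0.11. All points lie below 0, and the filled points are Ndufa13 and Ndufb10, the members with an adjusted p under 0.05.

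Set by role rather than place, the 7 core subunits had a median log2 fold change of -0.10 and the 30 supernumerary subunits -0.17. The core subunits fell into separate values, from -0.27 and -0.25 for Ndufs8 and Ndufs7 and -0.23 for Ndufv1 to -0.05 for Ndufv2. As means per library, core and supernumerary subunits were at -0.22 and -0.23 in EDA-A2 replicate 1 and -0.09 and -0.12 in EDA-A2 replicate 2. The range over the means of the 6 modules was -0.30 to -0.21 in the first treated library and -0.19 to -0.07 in the second, with ND1 the lowest in both. Differences between modules or roles were not tested.

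The 2 members outside complex I were Ndufa4 and Ndufa4l2. Ndufa4, a subunit of cytochrome c oxidase, had 4290.2 and 4116 normalised counts in the controls and 3342 and 3997 after EDA-A2 (log2 fold change -0.20 ± 0.08, adjusted p = 0.246), with both treated libraries under the controls. Its hypoxia-induced paralogue Ndufa4l2 was near the limit of detection, with 10.3, 7.06, 9.80 and 4.91 normalised counts in the 4 libraries (-0.23 ± 0.57, adjusted p = 0.912), and no difference was detectable at this depth.

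Compared per length, the subunit transcripts were not at equal levels although their proteins are built into the enzyme in equal numbers apart from Ndufab1. Levels are given here as counts per kb scaled so that all genes of a library sum to 1000000, as means of the 2 controls. With merged exon lengths, Ndufa2 was the highest at 457 and Ndufb2 the lowest at 13.2, a ratio of 34.7, with a median of 118. With the length of the canonical transcript, a choice added after the annotated lengths had been seen, Ndufa6 was the highest at 606, followed by Ndufb8 at 449.7, and Ndufb2 was again the lowest at 18.2, with a median of 207. On that scale 27 of the 37 lay within 2-fold of the median. The rank order depends on the length used, with a Spearman correlation of 0.70 between the 2 scales, and the annotated canonical transcripts of Ndufb2 and Ndufs6 are 4389 and 3593 bp long where the median is 1079 bp.

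**Figure D3:**
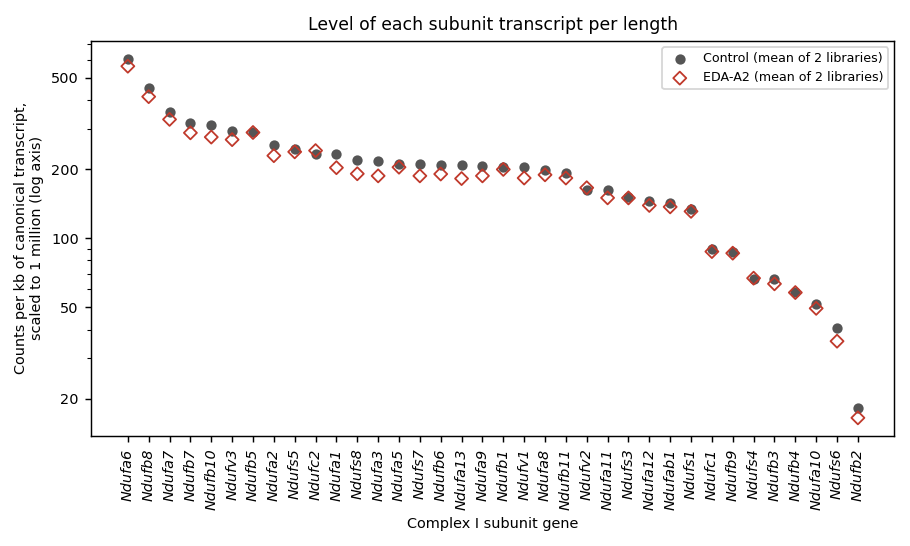
Level of 36 of the 37 complex I subunit transcripts as counts per kb of canonical transcript, scaled to the same total in each library (y axis, log scale), ordered from high to low; filled circles are control means and open diamonds EDA-A2 means (n = 2 libraries each). Levels run from 606 for Ndufa6 to 18.2 for Ndufb2 in the controls, and the distance between the groups is small beside the distance between genes.

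Some levels carry a further limit. The coding sequences of 9 members (8 of them tested) had a match of at least 95% identity over at least 100 bp elsewhere in GRCm39, mostly processed pseudogenes. The coding sequence of Ndufb4 (387 bp) was found without a single mismatch at chr15:73681359-73681745, annotated as Ndufb4c, and at chr19:25010506-25010892, within Dock8. Ndufs5 had a copy of 99.4% identity over 318 bp and Ndufab1 had copies of 99.8% and 99.4%, while those of Ndufa12, Ndufs3, Ndufb11, Ndufb3 and Ndufs6 had identities of 99.5% to 96.6%. Each of these pseudogenes had at most 30 counts over the 4 libraries. Values for these genes, which were picked out after the copies were known, are uncertain. Pairs not mapped uniquely were tallied apart from the genes, so pairs that match both places could have been dropped. The low counts on the pseudogenes do not show how many. Exons of 23 members also overlap a gene on the opposite strand and those of 5 members a gene on the same strand. The library kit keeps the strand, but the strand setting of the counting was not given in the sources used here.

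Within the 37 subunits, shorter and GC-rich transcripts tended towards lower values. The 19 with a canonical transcript of at most 1079 bp had a median log2 fold change of -0.20, and the 18 longer ones -0.14. Across these genes the Pearson correlation of log2 fold change was 0.28 with log2 length and -0.46 with GC content (Spearman 0.32 and -0.45). GC content is that of the longest transcript of each gene. These are descriptions over 37 genes read in the same 4 libraries. Over all genes tested the Spearman correlations were 0.06 with length and -0.18 with GC content. The 1294 genes in the same range of short lengths had a median of -0.04, and 57.3% of them were below 0. When the length and GC content of the longest transcript, rather than the canonical length, were fitted in each library, the median of the subunits was -0.15 again. In that fit no member was called (1.67% of all genes were called lower), and Ndufa13 and Ndufb10 had adjusted p-values of 0.112 and 0.173.

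**Figure D4:**
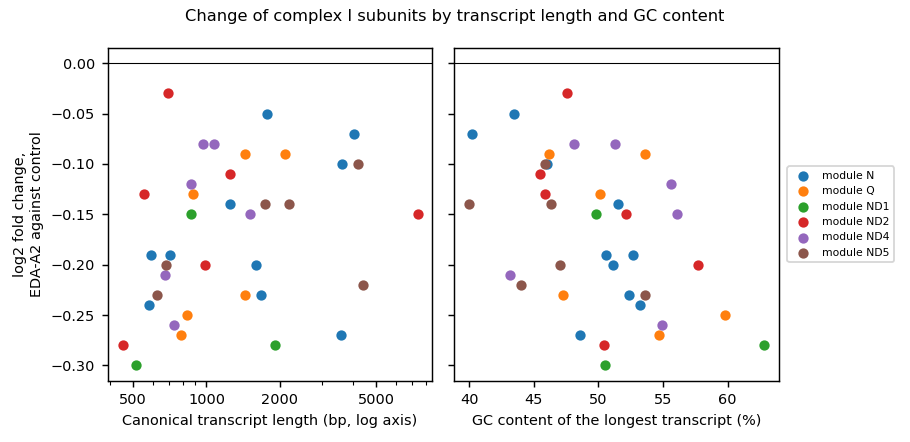
Log2 fold change (y axis, EDA-A2 against control) of the 37 complex I subunit genes against canonical transcript length in bp (left, log scale) and GC content of the longest transcript in % (right), coloured by module. Values are lower towards high GC content, with a Pearson correlation of -0.46, and only weakly related to length (0.28).

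Genes that build or complete the same enzyme were read in the same fit. Of 19 listed assembly factors, which help to build complex I without staying in it, 18 were tested, 10 below and 8 above 0, none called, with a median of -0.02. The smallest p was that of Tmem70, a factor for complexes I and V, with 1896 and 1749.6 normalised counts in the controls and 1954 and 2139 after EDA-A2 (0.17 ± 0.08, adjusted p = 0.309). Their mean log2 level relative to the controls was -0.03 and 0.02 in the treated libraries, against -0.23 and -0.11 for the subunits. Of the 7 core subunits encoded by mitochondrial DNA, 5 were tested, with a median of -0.07 and none called. That median was -0.16 without control replicate 1, 0.03 without control replicate 2 and -0.14 when length and GC content were fitted. mt-Nd3 and mt-Nd4l had 2 counts and 1 count over the 4 libraries, too few to be read as levels. mt-Nd6, the gene on the opposite strand from the other mt-Nd genes, had 643 and 598 normalised counts in the controls and 1770.2 and 533 after EDA-A2 (0.89 ± 0.33, adjusted p = 0.175), so that EDA-A2 replicate 1 alone was high, and without it the value was -0.22.

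Subunits of the other respiratory complexes were read in the same fit. In complexes II to V, 43 of 44 listed nuclear subunits were tested, and all 43 had values below 0 (median -0.18), 38 without overlap between the groups (against 22.2% of all genes) and 4 called lower (against 2.13%). The medians were -0.18 for the 9 genes of complex III and -0.22 for the 13 of complex IV. The called genes were Uqcr10 of complex III (3505 and 3245 normalised counts in the controls, 2593 and 2811 after EDA-A2, log2 fold change -0.32 ± 0.07, adjusted p = 0.0189), Cox6a2 and Cox8b of complex IV, and Atp5me of the ATP synthase, complex V. Cox6a2 and Cox8b are the striated muscle isoforms of their subunits. Cox6a2 had 5637 and 5025 counts in the controls and 4090.3 and 3936 after EDA-A2 (-0.41 ± 0.07, adjusted p = 0.00349), and Cox8b had 1266 and 1354 against 898 and 1116 (-0.38 ± 0.10, adjusted p = 0.0399). For Atp5me the counts were 2442 and 2513 against 1914 and 2114 (-0.30 ± 0.07, adjusted p = 0.0309). In complex II, which has no role in proton pumping, the smallest p was that of the membrane anchor Sdhd, with 6233 and 6769 counts in the controls and 5529 and 6009.7 after EDA-A2 (-0.17 ± 0.07, adjusted p = 0.246). As in complex I, EDA-A2 replicate 1 was further from the controls than EDA-A2 replicate 2 in the mean of these genes, at -0.28 and -0.12. With length and GC content fitted, Atp5me and Cox8b lost their calls (adjusted p = 0.165 and 0.0669). Over the list, the median was -0.18 without either control, -0.11 without EDA-A2 replicate 1 and -0.25 without EDA-A2 replicate 2. The difference between complex I and the other complexes was not tested.

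**Figure D5:**
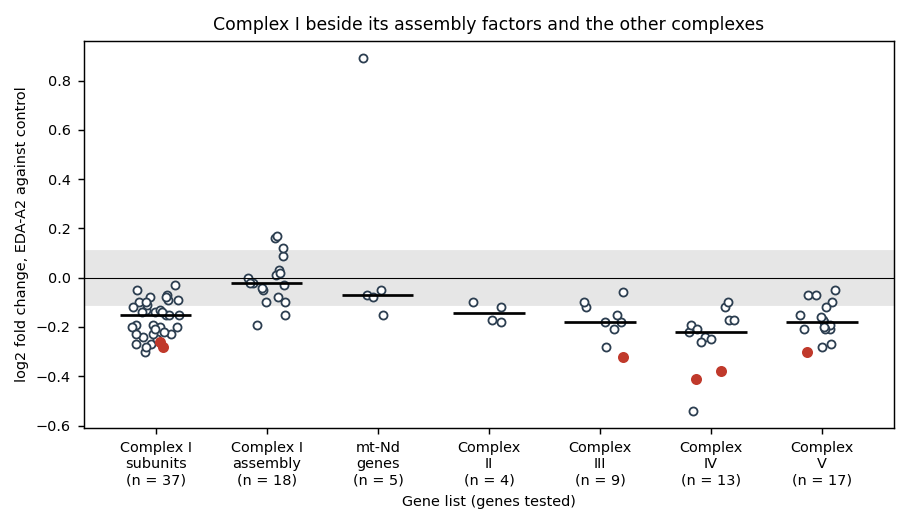
Log2 fold change (y axis, EDA-A2 against control) of each tested gene of complex I, its assembly factors, the mitochondrially encoded mt-Nd genes and the nuclear subunits of complexes II to V; horizontal bars are medians, filled red points have an adjusted p under 0.05, and the grey band spans the quartiles of all genes. Medians are -0.15 for the complex I subunits, -0.02 for the assembly factors and -0.22 for complex IV, and the high point among the mt-Nd genes is mt-Nd6.

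The lists of genes that mark the amount of mitochondria or regulate respiratory genes had medians nearer to 0 than the subunits. Of 13 tested genes for mitochondrial content, 11 were below 0, with a median of -0.06 and none called lower, and of 10 regulators 6 were below 0, with a median of -0.01. The gene called in both lists was Tfam, which packages mitochondrial DNA and starts its transcription and is named here after its value was seen. It rose, with 1379 and 1413 normalised counts in the controls and 1809 and 1887 after EDA-A2 (log2 fold change 0.41 ± 0.07, adjusted p = 0.00412). Tfam was not called without the filter on low counts (adjusted p = 0.0978). Its log2 fold change stayed between 0.37 and 0.46 in all alternatives, and between 0.37 and 0.44 with any 1 library left out, in fits that cannot decide the call. The share of all counts on mitochondrial genes was 1.59% and 1.66% in the controls and 1.59% and 1.67% after EDA-A2. Counts were uneven over these genes, and mt-Co1 had 240726 and 248221 in the controls and 236533 and 256830 after EDA-A2. In the same order, mt-Co2 had 38, 23, 32 and 33, mt-Co3 20, 16, 15 and 19, and mt-Atp6 7, 10, 8 and 16. The share therefore rests on part of the mitochondrial transcripts, and why the others had so few counts was not tested.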

How the data were processed

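RNA-seq libraries of mouse primary myotubes, 2 control and 2 EDA-A2, were analysed from gene counts. Per the labels, the authors' processing used FastQC 0.11.9, MultiQC 1.12, Trim Galore 0.6.5, STAR 2.7.3a (GRCm39) and HTSeq 0.11.1. What the authors deposited are unnormalised counts of read pairs for each Ensembl gene, in a separate table for every library. The annotation release and strand setting were not given in the sources used here. The summary lines of HTSeq did not enter library sizes or tests: read pairs outside genes were 6.68% to 7.40%, ambiguous pairs 0.946% to 0.986% and pairs not mapped uniquely 4.56% to 4.76%. Gene symbols were matched for 52610 of 53647 IDs with a GENCODE release of the same build.

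Counts were filtered with edgeR 4.0.16 (filterByExpr, minimum count 10, minimum total 15, leaving 15173 genes), scaled by TMM (scaling factors 0.9718 to 1.026) and tested with the quasi-likelihood test in R 4.3.3, with Benjamini-Hochberg adjustment over all tested genes at 0.05, since the study names no test per gene for these libraries. Normalised counts are counts divided by the effective library size (total counts times scaling factor) relative to its mean over the 4 libraries. Errors are SD over 2 libraries or SE of the log2 fold change (median SE 0.1). Copies were searched with blastn 2.17.0. Alternatives were other scalings and filters, DESeq2 1.42.0, protein-coding genes only, loess offsets for the length and GC content of the longest transcript, a replicate block and leaving out each library.

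The members and lists were chosen with earlier results of these data known. Values in every library are given for core subunits, called members, the lowest and highest of each module, the highest and lowest level per length, members outside complex I and, in other lists, called genes and the smallest p. Further names were chosen after their values were seen. Of the core subunits, 1 enters counts and medians but is not reported here by itself.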

Additional observations from a re-analysis of the deposited data

Results flagged for a closer look

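Outside the genes counted here, the share of read pairs that fell in no annotated gene was 7.4% in EDA-A2 replicate 1 and 6.84% in EDA-A2 replicate 2, both above the 6.68% of each control library.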

How the results depend on the processing

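The number of members called lower, 2 (Ndufa13 and Ndufb10), depended on the processing. It was 1 with upper quartile factors (1.92% of all genes called lower) and 1 with the DESeq2 Wald test (1.79%), Ndufa13 in both. It was 0 with total counts (1.28%), 0 without the filter on low counts (0.0861%) and 0 with length and GC offsets (1.67%). At an adjusted p under 0.01 it was 0 (0.890%), and under 0.10 it was 7 (3.32%). Fits with a library left out cannot decide the calls, since they leave 1 library in a group. With DESeq2's size factors, with at least 10 counts in every library and with protein-coding genes only it was 3 (2.19%, 2.16% and 2.33%), Ndufs6 being the third. Without either control no gene of the whole table was called lower, and the lone library left in a group was assumed to vary like the other group. The direction was steadier, with 37 to 39 of the tested members below 0 under every alternative. The median of the 37 subunits was -0.10 with total counts and ran from -0.22 to -0.12 when each library was left out. With total counts the medians of modules N, Q, ND1, ND2, ND4 and ND5 were -0.14, -0.12, -0.23, -0.08, -0.08 and -0.12. With a library left out they were -0.21 to -0.14 for N, -0.25 to -0.12 for Q, -0.31 to -0.16 for ND1, -0.20 to -0.12 for ND2, -0.19 to -0.08 for ND4 and -0.21 to -0.10 for ND5, the value nearest to 0 in each case without EDA-A2 replicate 1 (for ND2 also without control replicate 2). The length and GC offsets gave -0.15 for N, -0.14 for Q, -0.21 for ND1, -0.13 for ND2, -0.09 for ND4 and -0.20 for ND5. Total counts moved the median of all genes to 0.05 and that of the assembly factors to 0.04. Genes of complexes II to V called lower, 4 in the main test, were 1 with total counts, 0 without the filter and 0 to 8 with a library left out (8 without EDA-A2 replicate 2), and mt-Nd genes called were 0 to 1. The median of complexes II to V was -0.12 with total counts and -0.25 to -0.11 with a library left out, and that of the mt-Nd genes -0.02 and -0.16 to 0.03. The ratio of the highest to the lowest level per length, 34.7, was 18.1 with the longest transcript. Signs reversed for Ndufv2 (0.00 with total counts), Ndufc2 (0.02 with total counts, 0.05 without control replicate 2, 0.07 without EDA-A2 replicate 1), Ndufa4l2 (0.06 without control replicate 1, 0.17 without EDA-A2 replicate 2, and -0.80 at its lowest, without EDA-A2 replicate 1) and mt-Nd6 (-0.22 without EDA-A2 replicate 1). Of these only mt-Nd6 was ever called, at 1.51 without EDA-A2 replicate 2, where the high EDA-A2 replicate 1 stood alone, and under the replicate block. Over 391 comparisons of 28 named genes with 14 alternatives, 329 kept direction and side of the threshold, 40 lost the call, 15 gained one and 7 reversed. The cause of these changes was not tested.

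The replicate numbers were shared by both groups, but nothing in the labels pairs them. Across tested genes, the deviations of the replicate 1 libraries from their group means had a correlation of 0.0575. With 2 libraries per group this value cannot decide whether the replicates were paired, so pairing is unknown. With a replicate block 9 members (3.49% of all genes) and 11 genes of complexes II to V were called lower. The 1 mt-Nd gene called in that fit, mt-Nd6, was higher (log2 fold change 0.72, edgeR adjusted p = 0.029). With the length and GC offsets together with the replicate block, 2 members (2.99% of all genes) and 10 genes of complexes II to V were called lower. The 2 members were Ndufs6 and Ndufa4, which is outside complex I. Ndufa13 and Ndufb10 were not called in that fit (edgeR adjusted p = 0.053 and 0.0928). The ND1 median was -0.21. Depth limits what can be said of Ndufa4l2 and Ndufb11b, and for the other members the number of libraries, 2 per group, limits the precision.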
